A study of Homo sapiens with 24 samples.

Results

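BT549 is an established triple-negative breast cancer cell line, and its 6 arrays were chosen by the line name in the sample titles out of 24 arrays in all. They were set against the 18 arrays of HCC38, MDA-MB-157 and MDA-MB-231, with 6 arrays per line. All 4 lines were collected at 0, 24 and 72 h of 2 µM cisplatin, a platinum compound that crosslinks DNA, with 2 replicates of each line at each time, which the series' design text calls independent. RNA was measured on single-colour Illumina bead arrays. Each BT549 group was compared with the group of the other line at the same time, so time and exposure were matched within every comparison. The 0 h cultures are the only ones with no time in the drug, and untreated cultures at 24 and 72 h were not analysed here. Each line comes from a single tumour, so a difference between lines holds for these lines and not for a class of tumours.

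Mesenchymal cells secrete and crosslink a collagen matrix, contract through smooth-muscle type actin filaments and hold to each other loosely through N-cadherin. Epithelial cells are joined by E-cadherin, claudins and desmosomes and are stiffened by keratin filaments. Breast cancer lines spread between these states, and triple-negative lines often lie near the mesenchymal end.

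Between 18303 and 21976 of 47322 probes were detected per array (38.7% to 46.4%), where detected means a deposited detection p under 0.05, and the number of arrays limits the precision. Levels below are log2 intensities after background correction and quantile normalization, for 14807 named genes. A gene was called higher (or lower) in BT549 when limma gave an adjusted p under 0.05 with the same sign in all 9 comparisons, 3 lines at 3 times. Differences are averages over the 3 times of BT549 minus the mean of the other lines, with ± the standard error (SE). The largest of the 9 adjusted p-values is given with each call. Same-numbered BT549 arrays deviated together (correlations of 0.378 to 0.501 over 3 pairs), so the 3 times are not independent repeats. The fit treats all arrays as independent, so the SE of an average over the times may be too small. The floor of an array is its lowest signal among detected probes. If a gene was undetected throughout the dimmer of both groups compared, its fold is a lower bound set against that floor.

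By this rule 542 genes were higher in BT549 (3.66% of those tested) and 467 were lower (3.15%). With a difference of at least 1 log2 in all 9 comparisons the counts were 239 and 238 (1.61% in each direction). At single times the higher counts were 944, 920 and 913 at 0, 24 and 72 h (6.38%, 6.21% and 6.17%). The lower counts at these times were 736, 764 and 756 (4.97%, 5.16% and 5.11%). The counts hold for quantile-normalized arrays. With arrays scaled to their medians, which moved the median of all genes from -0.00271 to 0.101, the rule gave 239 higher and 151 lower genes. That scaling left 2 higher collagens, 2 collagen enzymes, 4 matrix glycoproteins, 3 smooth-muscle genes and 2 TGF-beta and BMP genes of the lists described below. In the authors' deposited log2 table, matched to the probes by value, it gave 512 higher and 214 lower genes. The same rule applied to each other line gave 874 higher and 632 lower genes for HCC38, 827 and 561 for MDA-MB-157, and 527 and 355 for MDA-MB-231.

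MDA-MB-231 lay nearest to BT549 at every time by the number of genes that differed. Between 5132 and 5301 genes (34.7% to 35.8%) differed between them, against 5846 to 6201 for MDA-MB-157 and 6110 to 6297 for HCC38. The median absolute difference per gene was 0.389 to 0.398 log2 against MDA-MB-231, 0.427 to 0.465 against MDA-MB-157 and 0.452 to 0.468 against HCC38. These comparisons share the BT549 arrays. By this median MDA-MB-231 was also the line nearest to HCC38 at every time (0.437 to 0.46 log2). Across genes BT549 correlated at 0.896 to 0.898 with MDA-MB-231, 0.891 to 0.898 with MDA-MB-157 and 0.879 to 0.886 with HCC38. Against HCC38 the higher and lower genes were 20.6% and 20.7% at 0 h, 21.1% and 21.4% at 24 h, and 20.9% and 21% at 72 h. Against MDA-MB-157 they were 20.7% and 20%, 19.6% and 19.9%, and 20.6% and 21.3% at the same times. Against MDA-MB-231 they were 18% and 16.6%, 17.5% and 17.5%, and 18% and 17.8%.

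The labelled identity was first set against receptor and lineage markers. PGR, the progesterone receptor, was detected on no BT549 array, and ESR1, the estrogen receptor, passed the detection filter in no line. ERBB2, which encodes HER2, measured 7.84 to 8.20 in BT549 and differed from the mean of the others by -0.97 ± 0.09 log2, with no call in limma (largest adjusted p = 0.288). VIM, the mesenchymal filament protein vimentin, was bright in all lines and measured 13.71 to 14.34 in BT549. CDH1, which encodes E-cadherin, measured 4.91 to 6.16 in BT549, overlapping MDA-MB-157 and MDA-MB-231, and 11.07 to 11.32 in HCC38. Of 12 tested leukocyte and endothelial markers, 0 were called in either direction and their median difference was -0.08. PECAM1 and ITGAM, an endothelial and a myeloid marker, were detected on 0 BT549 arrays.

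Promoters of 4 genes that the results turn on are shown here, as RefSeq gives them on GRCh38.p14, from 250 bases before to 50 after the gene start, 5′ to 3′ on the gene's strand. The first 3 belong to the neutrophil-attracting chemokines CXCL5, CXCL8 and CXCL1, all called higher in BT549, at chr4:73998628-73998927 on the minus strand, chr4:73740319-73740618 on the plus strand and chr4:73869143-73869442 on the plus strand. Capitals mark GGAATTTCC, a sequence of the kind that NF-kB binds. The last belongs to IFIT3, an interferon-stimulated gene whose change at 72 h was larger in BT549, at chr10:89327747-89328046 on the plus strand. Capitals there mark GAAANNGAAA read on the opposite strand, a sequence of the kind found in interferon-stimulated response elements.
CXCL5: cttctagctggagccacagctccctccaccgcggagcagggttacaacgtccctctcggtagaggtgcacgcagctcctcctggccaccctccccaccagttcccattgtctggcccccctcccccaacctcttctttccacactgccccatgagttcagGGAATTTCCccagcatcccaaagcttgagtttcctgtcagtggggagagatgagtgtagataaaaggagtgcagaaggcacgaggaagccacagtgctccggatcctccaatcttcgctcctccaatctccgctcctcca
CXCL8: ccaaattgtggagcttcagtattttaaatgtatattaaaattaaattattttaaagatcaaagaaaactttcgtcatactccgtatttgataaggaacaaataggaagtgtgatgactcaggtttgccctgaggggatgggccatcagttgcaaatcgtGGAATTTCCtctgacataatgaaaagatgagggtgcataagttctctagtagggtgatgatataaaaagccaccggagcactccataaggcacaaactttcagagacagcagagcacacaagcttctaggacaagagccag
CXCL1: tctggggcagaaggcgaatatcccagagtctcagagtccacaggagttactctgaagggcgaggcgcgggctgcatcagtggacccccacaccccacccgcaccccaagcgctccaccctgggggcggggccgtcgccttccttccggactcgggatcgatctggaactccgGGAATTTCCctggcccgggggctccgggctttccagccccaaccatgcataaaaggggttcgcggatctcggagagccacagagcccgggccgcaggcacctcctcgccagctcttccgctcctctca
IFIT3: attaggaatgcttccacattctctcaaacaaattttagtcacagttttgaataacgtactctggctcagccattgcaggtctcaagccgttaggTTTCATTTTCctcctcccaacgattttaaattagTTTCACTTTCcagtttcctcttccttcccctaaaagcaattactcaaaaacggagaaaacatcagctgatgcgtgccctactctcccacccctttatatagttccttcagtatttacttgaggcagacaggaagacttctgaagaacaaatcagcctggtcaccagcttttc

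The 4 genes given as markers of BT549 had the largest mean differences among the genes named here. COL1A2, a chain of type I collagen (chr7:94394895-94431227 on GRCh38.p14), measured 11.87 to 12.13 on the 6 BT549 arrays, with a median of 11.97. It measured 5.07 to 7.42 in HCC38, 4.44 to 5.53 in MDA-MB-157 and 4.52 to 6.37 in MDA-MB-231. No array of another line came near BT549, and the difference was 6.46 ± 0.29 log2 (limma, largest adjusted p = 1.06e-06). THY1, a surface glycoprotein of fibroblasts and mesenchymal stem cells (chr11:119415476-119424985), measured 11.03 to 11.88 in BT549 with a median of 11.52. The other 18 arrays lay between 4.29 and 6.46, and 7 of them detected it. The difference was 6.63 ± 0.25 log2, at least 56.4-fold in each of the 9 comparisons (limma, largest adjusted p = 2.67e-08).

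TAGLN, the actin-binding smooth-muscle protein transgelin (chr11:117199294-117207465), measured 12.44 to 13.87 in BT549 with a median of 13.22. It was detected on all 18 other arrays, but at no more than 8.50, so the groups did not overlap. The difference was 6.27 ± 0.31 log2 (limma, largest adjusted p = 2.15e-06). The other TAGLN probes gave 6.20 and 0.98. BAIAP2L2, a protein of the membrane-binding I-BAR family (chr22:38084900-38110967), measured 10.65 to 11.67 in BT549 with a median of 11.25. The other arrays lay between 4.39 and 6.39, again without overlap, and the difference was 6.07 ± 0.25 log2 (limma, largest adjusted p = 8.26e-08). Another pair of I-BAR family genes went the other way. BAIAP2 was lower by 2.64 ± 0.09 log2 (limma, largest adjusted p = 1.29e-08), with other probes at -1.52, -1.03 and 0.10, and BAIAP2L1 had a difference of -1.63 ± 0.09 log2 (limma, largest adjusted p = 2.03e-05). The BAIAP2L1 call ended with median scaling.

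**Figure D1:**
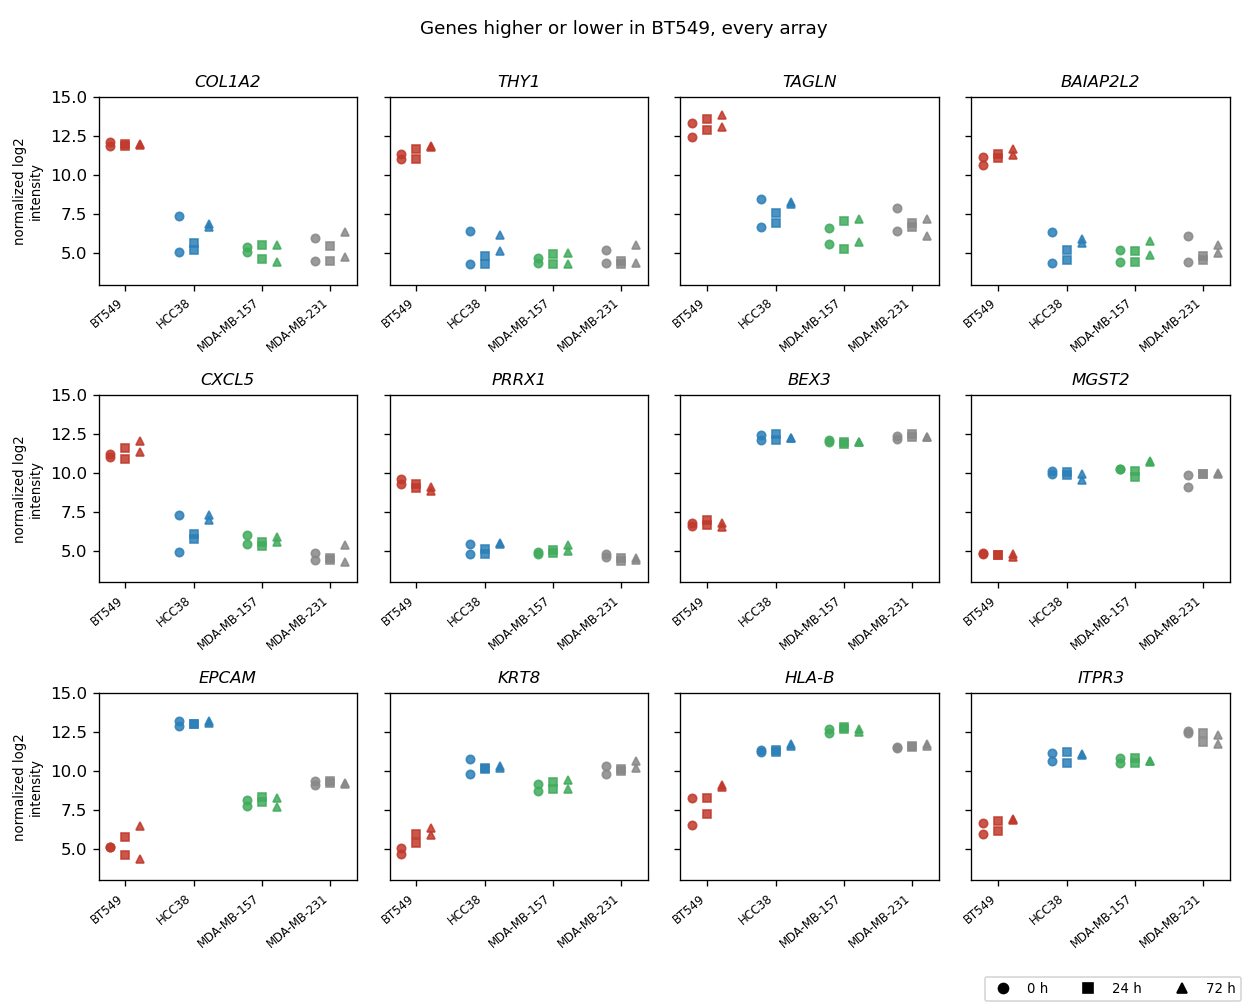
Normalized log2 intensity (y axis) on every array for 12 genes, with the cell lines on the x axis and circles, squares and triangles for 0, 24 and 72 h. BT549 stands above every other array for COL1A2, THY1, TAGLN, BAIAP2L2, CXCL5 and PRRX1 and below every other array for BEX3, MGST2, EPCAM, KRT8, HLA-B and ITPR3.

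Collagen genes did not shift as a group. Of 24 tested, 4 were higher, 1 was lower and the median difference was -0.12, while the median of all genes was -0.00271. COL5A2, a fibrillar collagen chain, measured 11.28 to 11.67 in BT549, 10.13 to 10.43 in MDA-MB-157, 7.07 to 8.08 in HCC38 and 4.40 to 5.42 in MDA-MB-231. BT549 was highest on every array, by 3.92 ± 0.12 log2 on average (limma, largest adjusted p = 0.00134). COL12A1, a collagen that links fibrils, differed by 1.53 ± 0.12, with another probe at 0.15. The COL12A1 call ended with median scaling and with the mean of a gene's probes. COL15A1 lay near the threshold (largest adjusted p = 0.0486 in limma), and its call ended in 25 of 35 alternative settings, in one of which, BT549 72 h replicate 1 left out, the adjusted p was 0.652. COL6A3, a chain of type VI collagen, was lower at -2.40 ± 0.11 (limma, largest adjusted p = 0.0209) and was detected on 1 BT549 array. The COL6A3 call ended in 11 of 35 settings, among them the removal of any of 6 single arrays, where the adjusted p reached 0.331 (MDA-MB-231 72 h replicate 2). With the replicate block the list had 3 lower genes. SPARC, a collagen-binding matrix protein, was not called, since BT549 at 10.58 to 11.03 lay below MDA-MB-157 at 11.54 to 12.45.

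The enzymes that mature collagen included 4 higher genes of 20 and 0 lower. LOX, lysyl oxidase, which crosslinks collagen and elastin, measured 10.89 to 12.23 in BT549 with a median of 11.61. It measured 8.72 to 9.33 in MDA-MB-231, 7.24 to 8.20 in MDA-MB-157 and 5.49 to 7.11 in HCC38, so the order of the lines was the same on every array. The difference was 3.82 ± 0.18 log2 (limma, largest adjusted p = 4.06e-05). P3H3, a collagen prolyl hydroxylase family member, had a difference of 2.66 ± 0.10 (limma, largest adjusted p = 2.84e-06). SERPINH1, the collagen chaperone HSP47, and PCOLCE2, an enhancer of procollagen cleavage, were also called. Without BT549 24 h replicate 1 those calls ended (adjusted p of 0.0589 and 0.23) and 2 higher genes were left. The SERPINH1 call also ended on leaving out MDA-MB-231 72 h replicate 1 or BT549 72 h replicate 1 (adjusted p of 0.0792 and 0.199). The PCOLCE2 call ended on leaving out HCC38 0 h replicate 2 or either HCC38 24 h array (adjusted p of 0.121, 0.0507 and 0.169).

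Matrix glycoproteins and proteoglycans held the highest share of higher genes among the lists, 8 of 36 (22.2%), with 2 lower and a median of 0.36. THBS2, a thrombospondin, measured 8.34 to 9.78 in BT549 against 4.57 to 6.25 on the other arrays and differed by 3.81 ± 0.17 log2 (limma, largest adjusted p = 1.97e-06). EFEMP2, a fibulin of elastic fibres, measured 8.58 to 9.07 against 4.58 to 6.46 and differed by 3.43 ± 0.14 (limma, largest adjusted p = 1.19e-06). The elastic fibre proteins MFAP2, MFAP5 and FBN1 were higher by 2.23, 1.76 and 0.87. FBN1 was detected on none of the 18 other arrays, so it passed the detection filter through BT549 alone. Without BT549 0 h replicate 1 the list had 5 higher genes, and POSTN, or periostin, was then at an adjusted p of 0.0694 in limma, and at 0.13 when BT549 24 h replicate 1 was left out. EMILIN2 was lower by 3.59 ± 0.09 log2, at least 4.19-fold, and was detected on 0 BT549 arrays (limma, largest adjusted p = 6.84e-09). FN1, or fibronectin, was near the floor in all lines on the probe used, with a difference of -0.03.

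Smooth-muscle contractile and LIM genes numbered 26, of which 5 were higher and 1 was lower, with a median of 0.34. ACTA2, smooth-muscle actin, measured 12.39 to 13.46 in BT549 with a median of 12.96. HCC38 was next at 9.85 to 10.53, while MDA-MB-157 and MDA-MB-231 overlapped at 6.89 to 7.86 and 7.20 to 8.17. The difference was 4.60 ± 0.14 log2 (limma, largest adjusted p = 2.68e-06). TPM2, a tropomyosin of contractile filaments, measured 13.47 to 13.85 in BT549 and 11.81 to 12.43 in HCC38, the nearest line. Its difference was 3.68 ± 0.12 (limma, largest adjusted p = 8.89e-05). MYLK, the kinase that activates myosin in smooth muscle, was lower at -2.51 ± 0.08 log2 and was detected on 1 BT549 array (limma, largest adjusted p = 1.9e-06). A second MYLK probe gave -0.77.

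Among cadherins and mesenchymal transcription factors 3 of 17 were higher and 0 lower, with a median of 1.10. PRRX1, a homeodomain factor of limb and craniofacial mesenchyme, measured 8.84 to 9.63 in BT549 against 4.38 to 5.54 on all other arrays. The difference was 4.27 ± 0.10 log2, at least 11.2-fold (limma, largest adjusted p = 1.62e-10), while a second probe gave 0.57. CDH2, which encodes N-cadherin, measured 11.91 to 12.67 in BT549, 10.39 to 10.78 in MDA-MB-157, 9.31 to 10.48 in HCC38 and 4.58 to 6.92 in MDA-MB-231. It was higher by 3.50 ± 0.19 log2 (limma, largest adjusted p = 0.00669), and without BT549 0 h replicate 2 its adjusted p was 0.0844. TCF4, a helix-loop-helix factor, was the remaining called gene at 1.98. The TCF4 call ended with median scaling, in the authors' deposited table, and on leaving out HCC38 72 h replicate 1, HCC38 0 h replicate 1 or BT549 72 h replicate 2 (adjusted p of 0.167, 0.087 and 0.107). TWIST1, which drives the mesenchymal state, differed by 3.55 on average but was not called (largest adjusted p = 0.588 in limma). ZEB1 was detected on all 6 BT549 arrays at 5.21 to 5.71 and was not called.

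Of 38 tested epithelial junction and identity genes, 4 were lower and 1 was higher. Of the 38, 18 were detected on under 2 BT549 arrays and so passed the filter only with arrays of other lines. The median of -1.06 describes the tested genes and is no support for a lower list. EPCAM, an epithelial adhesion molecule, measured 4.38 to 6.50 in BT549, 7.72 to 8.35 in MDA-MB-157, 9.08 to 9.39 in MDA-MB-231 and 12.88 to 13.21 in HCC38. It was lower by 4.85 ± 0.21 log2 (limma, largest adjusted p = 0.000102). DSP, the desmosome protein desmoplakin, measured 4.81 to 5.31 against 7.75 to 8.83 on the other arrays, a difference of -3.25 ± 0.09 (limma, largest adjusted p = 1.96e-09), with a second probe at -0.59. MAL2, an apical transport protein, differed by -4.02 ± 0.07 (limma, largest adjusted p = 3.32e-11), and JUP, or plakoglobin, was the remaining lower gene. The JUP call ended when any of 3 arrays was left out, with adjusted p of 0.222 for MDA-MB-157 24 h replicate 1, 0.139 for BT549 0 h replicate 2 and 0.137 for BT549 24 h replicate 2.

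CLDN1, a tight-junction claudin, went against its list. It measured 10.06 to 11.47 in BT549 and 7.82 to 9.46 in HCC38, the nearest line, and was higher by 4.0 ± 0.20 log2 (limma, largest adjusted p = 0.00029). Of 9 tested keratins 2 were called lower and 0 higher. The median was -1.05, and 4 of the 9 passed the filter through other lines, being detected on under 2 BT549 arrays. That median is no support for a lower list either. KRT8 measured 4.66 to 6.37 in BT549 against 8.70 to 10.80 on the other arrays, a difference of -4.26 ± 0.15 log2 (limma, largest adjusted p = 3.04e-07). KRT18, its filament partner, differed by -2.36 ± 0.13 (limma, largest adjusted p = 0.000132), with a second probe at -0.80. CLDN3 and CLDN7 were undetected on all BT549 arrays but not called, because MDA-MB-157 had them near the floor too. ESRP1 and GRHL2, regulators of the epithelial state, were detected on 0 BT549 arrays. HCC38 was the only line that detected them, so their absence was not particular to BT549.

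**Figure D2:**
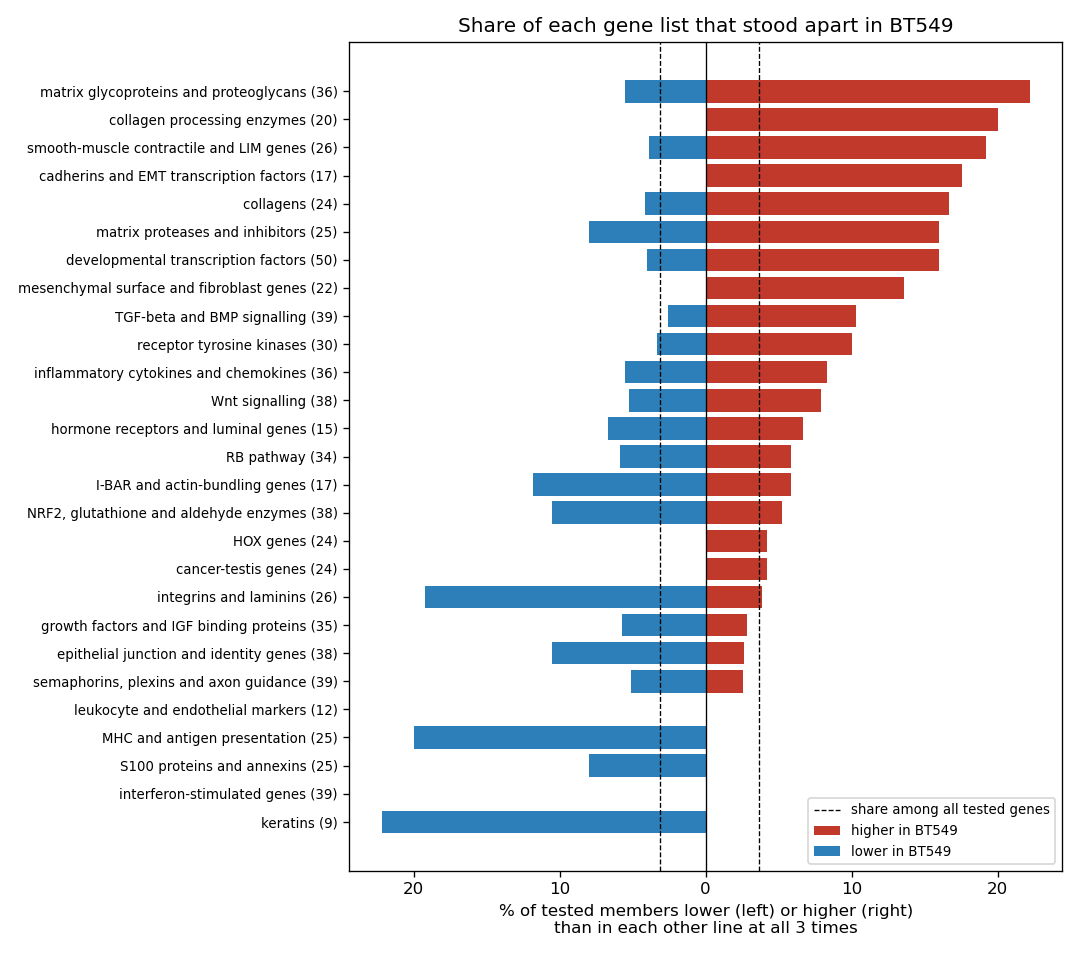
Share of the tested members of each of 27 gene lists (number tested in brackets) that were called higher (right) or lower (left) in BT549 at all 3 times, in percent on the x axis, with dashed lines at the shares among all tested genes, 3.66% and 3.15%. Matrix glycoproteins reach 22.2% higher, and keratins reach 22.2% lower on 9 genes.

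Of 26 tested integrins and laminins 5 were lower and 1 was higher, with a median of -0.25. Of the 26, 6 were detected on under 2 BT549 arrays, so the median is no support for a lower list. LAMB3, a chain of the epithelial laminin of hemidesmosomes, was detected on 0 BT549 arrays and on all others, with a difference of -4.20 ± 0.11 log2, at least 2.84-fold (limma, largest adjusted p = 1.59e-06). A second LAMB3 probe gave -0.58. ITGB4, the hemidesmosome integrin, was also undetected on all BT549 arrays and measured 5.16 to 9.11 on the others (limma, largest adjusted p = 0.00197). ITGA10, a collagen-binding integrin, was the higher gene at 3.52 ± 0.21 log2 (limma, largest adjusted p = 1.84e-05). Median scaling left 1 lower gene in the list, and leaving out MDA-MB-157 24 h replicate 1 left 3.

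Of 25 tested matrix proteases and inhibitors 19 were not called. The 4 higher genes were the cathepsins CTSL, CTSK and CTSB and the protease ADAMTS1, and the 2 lower genes were the metalloprotease inhibitors TIMP3 and TIMP4. CTSL measured 13.02 to 14.26 in BT549 against 10.18 to 12.12 elsewhere, a difference of 2.19 ± 0.16 log2 (limma, largest adjusted p = 0.00131). TIMP3 was undetected on all 6 BT549 arrays and measured 5.84 to 9.18 on the others (limma, largest adjusted p = 0.00149). The TIMP3 call ended without background correction, and 0 genes of the list were lower in the authors' deposited table. The CTSB call ended in 15 of 35 settings, with an adjusted p up to 0.274 (BT549 0 h replicate 1 left out). The ADAMTS1 call ended on leaving out HCC38 0 h replicate 2 or either BT549 0 h array (adjusted p of 0.206, 0.0967 and 0.106), and in the first case 2 higher genes were left.

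WNT5B, a ligand of the noncanonical Wnt pathway, measured 9.45 to 10.25 in BT549 and at most 7.64 on the other arrays, a difference of 3.13 ± 0.13 log2 (limma, largest adjusted p = 1.57e-07). RSPO3, which amplifies Wnt signals, measured 6.25 to 8.09 and was detected on 1 of the 18 other arrays, a difference of 2.54 ± 0.18 (limma, largest adjusted p = 0.000108). Of 38 Wnt genes 3 were higher and 2 lower, and without BT549 72 h replicate 1 the counts were 2 and 0, with SFRP2 at an adjusted p of 0.0671. FSTL1, a secreted BMP modulator, was higher by 2.79 ± 0.09 log2 (limma, largest adjusted p = 4.21e-08), and TGFB2, a TGF-beta ligand, was undetected on all BT549 arrays at -2.88 ± 0.12 (limma, largest adjusted p = 5.35e-07). In the TGF-beta and BMP list 4 of 39 genes were higher and 1 lower, and without MDA-MB-157 72 h replicate 2 the higher genes numbered 2. FGF2, basic fibroblast growth factor, measured 10.03 to 10.46 in BT549 and 7.96 to 8.70 in HCC38, and was detected on no array of MDA-MB-157 or MDA-MB-231. It was higher by 4.29 ± 0.08 (limma, largest adjusted p = 1.47e-06), with a second probe at 2.44.

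Chemokines that attract neutrophils stood out among the 36 tested cytokines, of which 3 were higher and 2 lower, with a median of 0.16. CXCL5 measured 10.93 to 12.06 in BT549 with a median of 11.31, against 4.31 to 7.35 elsewhere. The difference was 5.80 ± 0.24 log2, at least 23.6-fold in each comparison (limma, largest adjusted p = 4.11e-07). CXCL8, interleukin 8, measured 11.23 to 13.36 in BT549 with a median of 11.93. The highest other array was 10.13, in HCC38, and the difference was 4.20 ± 0.27 (limma, largest adjusted p = 0.00022). CXCL1 measured 11.34 to 11.69 in BT549 and at most 9.74 in HCC38, with a difference of 4.32 ± 0.20 (limma, largest adjusted p = 0.00179). These 3 genes kept their call in all 35 alternative settings.

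GGAATTTCC, searched on both strands, was in the promoters of all 3, as shown above. It was in 0.457% of 11601 promoters of tested genes and in 10 of 26 promoters (38.5%) of the cytokine list. Among the promoters of genes called higher at all 3 times 0.777% held it, and among those called lower 0. This motif and GAAANNGAAA were added after the genes were seen, and a match describes letters in a window. Of the motifs chosen earlier, TATAAA was in 7.25% of promoters of higher genes and 7.15% of all tested, CAGAC in 38.9% and 43.4%, and TGANTCA, the AP-1 sequence, in 3.37% and 4.88%. The CArG box of serum response factor was in 0.518% and 1.09%, and in 5 of 24 promoters (20.8%) of the smooth-muscle list. Of the 4 higher genes of that list with a promoter entry, 0 held it.

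Genes of antigen presentation were lower or uncalled. Of 25 tested, 5 were lower (20%, beside 3.15% of all tested genes), 0 were higher and the median was -0.57. Of the 25, 7 were detected on under 2 BT549 arrays and so passed the filter only with arrays of other lines. HLA-DMA, among the lower genes, was undetected in BT549. PSMB8, also among them, differed by only -0.85 log2, with other probes at -0.79, -0.54 and -0.36. Its call ended in 26 of 35 settings. The median describes the tested genes and is no support for a lower list. HLA-B, a class I heavy chain (chr6:31353875-31357179), measured 6.55 to 9.12 in BT549 with a median of 8.26, against 11.21 to 12.83 on all other arrays. It differed by -3.81 ± 0.17 log2 (limma, largest adjusted p = 7.7e-06). HLA-F, at 6.61 to 8.40 against 10.35 to 12.33, differed by -3.82 ± 0.14 (limma, largest adjusted p = 1.16e-06), and HLA-G by -3.55 ± 0.14. Class I genes are near-identical and polymorphic, so their probes may cross-hybridise or miss an allele, which was not tested. HLA-C at -1.37 and B2M, the class I light chain, at 1.35 were not called. HCP5, a noncoding RNA gene in the same region, was detected on 1 BT549 array and on all others, with a difference of -5.50 ± 0.11 (limma, largest adjusted p = 2.56e-10).

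Several further genes did not overlap the other lines. SYT11, a vesicle protein, measured 10.32 to 10.62 in BT549 against 4.62 to 6.56 (5.04 ± 0.15 log2). HAS3, a hyaluronan synthase, measured 9.88 to 11.58 against 4.43 to 6.81, with a second probe giving 1.27 where the first gave 4.84. SPON2, a secreted matrix protein, measured 7.80 to 10.06 and was detected on 0 of the 18 other arrays, at least 11.2-fold. It passed the detection filter through BT549 alone. AGTR1 and BDKRB1, the receptors for angiotensin II and for kinins, differed by 4.03 ± 0.15 and 4.35 ± 0.11. BDKRB1 too passed the filter only with BT549 arrays. NCAM1, a neural adhesion molecule, differed by 4.18 with a second probe at 0.73, and GLDC, the glycine cleavage enzyme, by 4.27 ± 0.15. The limma adjusted p of each of these was at most 1.42e-06, and each kept its call in all 35 settings, which the choice by gap also favours.

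On the lower side, 3 neighbouring X-linked genes of the BEX and TCEAL family were among the 15 with the widest gaps. BEX3 (chrX:103376323-103378164) measured 6.57 to 6.97 in BT549 against 11.86 to 12.53 on the other arrays, a difference of -5.48 ± 0.08 log2 (limma, largest adjusted p = 8e-14). Other BEX3 probes gave -5.05 and -1.465. TCEAL9 (chrX:103356506-103358462) and TCEAL8 (chrX:103252995-103255155) differed by -4.20 ± 0.12 and -3.75 ± 0.10. Family members are similar in sequence, so probes may cross-hybridise. MGST2, a microsomal glutathione transferase, was undetected in BT549 and measured 9.09 to 10.79 elsewhere, at least 23.5-fold (limma, largest adjusted p = 4.69e-12). ADD3, an adducin of the membrane skeleton, differed by -4.93 ± 0.09, with other probes at -2.38 and -3.22. ITPR3, a calcium channel of the endoplasmic reticulum, measured 5.98 to 6.95 against 10.54 to 12.58 (-4.72 ± 0.14). PLAAT3 and ADGRG1 differed by -5.54 and -5.44, but each had a second probe near 0 (-0.09 and 0.06). A further ADGRG1 probe gave -5.46. CALB2, the calcium-binding protein calretinin, was undetected in BT549 and differed by -5.04 ± 0.22, with a second probe at -1.06.

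Oxidant defence genes were mixed, with 2 of 38 higher, 4 lower and a median of -0.29. HMOX1, heme oxygenase, measured 10.71 to 11.25 in BT549 against 6.75 to 7.76 on all others and differed by 3.81 ± 0.12 log2 (limma, largest adjusted p = 1.05e-09). The other higher gene, ALDH3A1, an aldehyde dehydrogenase, lost its call in 15 of 35 settings, with an adjusted p up to 0.376 for a single array left out (BT549 72 h replicate 2). GPX3, a secreted glutathione peroxidase, differed by -4.0 ± 0.11 (limma, largest adjusted p = 2.86e-06). GPX4, which reduces lipid peroxides, was lower by 0.81 ± 0.09 (limma, largest adjusted p = 0.0082). Without BT549 24 h replicate 2 the GPX4 and GSTM4 calls ended (adjusted p of 0.101 and 0.13) and 2 lower genes were left. The GPX4 call also ended on leaving out HCC38 72 h replicate 1, BT549 0 h replicate 2 or BT549 72 h replicate 2, and the GSTM4 call on leaving out either the BT549 72 h or the MDA-MB-157 24 h array of replicate 2.

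Developmental transcription factors held 8 higher and 2 lower genes of 50, with a median of -0.15 that turned to 0.06 under median scaling. FOXD1, a forkhead factor of stromal progenitors, measured 10.30 to 10.89 in BT549, 8.33 to 8.88 in MDA-MB-157 and at most 6.07 elsewhere (4.25 ± 0.15 log2). SOX15 differed by 3.76 ± 0.15, TBX18, a T-box factor, by 2.83 ± 0.09 with a second probe at 1.14, and PAX6, an eye and brain factor, by 1.85 ± 0.10. The limma adjusted p of these 4 was at most 0.000298. Of the list, 5 genes were higher in the authors' deposited table, and 0 were lower with median scaling.

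Some lists had few called genes. Mesenchymal surface genes held 3 higher of 22 (median 0.43), among them TNFRSF11B, the decoy receptor osteoprotegerin, at 2.11 ± 0.14 log2, and the CD248 call ended when any of 4 arrays was left out (adjusted p up to 0.214, for BT549 24 h replicate 1). Receptor tyrosine kinases held 3 higher and 1 lower of 30 (median -0.12), led by the ephrin receptor EPHA4 at 2.27 ± 0.13, and median scaling left 1 and 0. Single arrays ended the calls of NTRK3, EPHA5 and DDR1 (lost in 11 and 5 of 34 settings and in 9 of 35). NTRK3 and EPHA5 passed the detection filter only with BT549 arrays. Growth factors and IGF-binding proteins held 1 higher and 2 lower of 35, with IGFBP6, a binder of IGF-II, at -4.16 ± 0.14. The other lower gene, IGFBP4, lost its call in 17 of 35 settings, with an adjusted p up to 0.487 (BT549 72 h replicate 2 left out). HOX genes held 1 higher of 24, HOXB4, whose call ended without BT549 0 h replicate 2 or HCC38 0 h replicate 1 (adjusted p of 0.0915 and 0.0593). Hormone receptor and luminal genes held 1 in each direction of 15, and cancer-testis genes 1 higher of 24. These higher genes, MYB and DDX43, lost their calls in 7 of 35 and 11 of 34 settings, with an adjusted p up to 0.339 (HCC38 0 h replicate 2) and 0.258 (BT549 0 h or 24 h replicate 2) for a single array left out. S100 proteins and annexins held 2 lower of 25, with S100A16, a calcium-binding protein, undetected in BT549 and at -4.96 ± 0.11. Of these 25, 6 were detected on under 2 BT549 arrays, so the list's median of -0.68 is no support for a lower list. The call of ANXA3, an annexin, ended in 8 of 35 settings, with an adjusted p up to 0.739 (BT549 72 h replicate 1 left out). I-BAR and actin-bundling genes held 1 higher and 2 lower of 17. Axon guidance genes held 1 higher, the receptor ROBO1 at 2.45 ± 0.10, and 2 lower of 39. Median scaling left 0 lower, and SEMA4F and SEMA4D lost their calls in 11 and 4 of 35 settings.

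RB1, the retinoblastoma gene, whose product restrains entry into S phase, was detected on 0 of 6 BT549 arrays and on all 18 others. It measured 4.42 to 4.75 in BT549, 5.57 to 6.39 in MDA-MB-157, 6.97 to 8.33 in MDA-MB-231 and 7.52 to 8.31 in HCC38. The difference was -2.67 ± 0.14 log2, at least 1.62-fold in each comparison (limma, largest adjusted p = 0.00243). MDA-MB-157 lay closest to BT549, and the call ended without background correction, with median scaling and in the authors' deposited table (adjusted p up to 0.357). RB1 lies at chr13:48303751-48481890 on GRCh38.p14. Of the 5 tested genes on either side, 0 were lower. RB1-DT, a divergent transcript that starts beside RB1 (chr13:48296513-48303702), was higher by 1.86 ± 0.10 (limma, largest adjusted p = 7.49e-06). LPAR6, a lysophosphatidic acid receptor gene within an intron of RB1 (chr13:48389571-48444669), was higher by 2.84 ± 0.15 (limma, largest adjusted p = 0.00282). The neighbours ITM2B and MED4 were not called, at -0.28 and 0.42. Whether the arrays distinguish the strands of overlapping genes was not tested.

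At the chromosome 9 locus of the CDK inhibitors BT549 was highest. CDKN2B, which encodes p15 (chr9:22002903-22009313), measured 8.81 to 9.29 in BT549, 7.46 to 8.31 in MDA-MB-157, 4.48 to 5.24 in HCC38 and 4.43 to 4.75 in MDA-MB-231. MTAP, a methionine salvage enzyme beside it (chr9:21802636-21941115), measured 9.88 to 10.16 in BT549, 8.19 to 8.49 in MDA-MB-157 and at most 5.39 in the other lines. Both were called (limma, largest adjusted p = 0.00106 and 1e-05), and the CDKN2B call ended with median scaling. The CDKN2B probe used differed by 3.22 log2, and other probes gave 2.67 and 0.49. CDKN2A, which encodes p16 and p14ARF (chr9:21967752-21995324), measured 10.54 to 11.39 in BT549 and 9.92 to 10.35 in MDA-MB-157 and missed the threshold (limma, largest adjusted p = 0.0537). It was 4.54 to 6.22 in HCC38 and MDA-MB-231, so the average differences at this locus are set mainly by those lines. Other CDKN2A probes gave 0.41 and 4.47. CCND1, cyclin D1, which drives RB1 phosphorylation, measured 8.46 to 10.79 in BT549 against 11.39 to 12.89 elsewhere, a difference of -2.48 ± 0.22 (limma, largest adjusted p = 0.022). The CCND1 call ended when any of 4 arrays was left out, with adjusted p of 0.312 for BT549 72 h replicate 1, 0.114 for BT549 24 h replicate 1, and 0.0964 and 0.0661 for the first and second MDA-MB-157 array at 72 h. Of 34 tested genes of the RB pathway list 2 were higher and 2 lower, with a median of 0.21, and with median scaling 1 and 0.

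**Figure D3:**
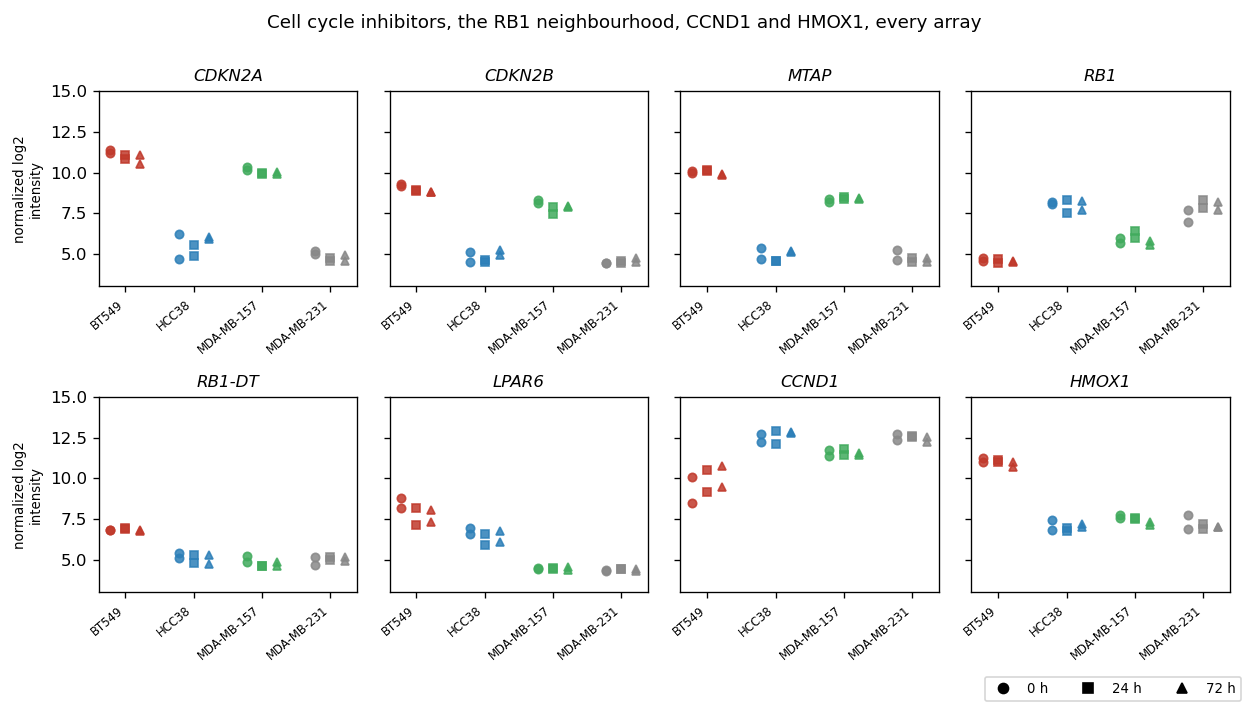
Normalized log2 intensity (y axis) on every array by cell line (x axis), with circles, squares and triangles for 0, 24 and 72 h. RB1 is at 4.42 to 4.75 in BT549 and MDA-MB-157 lies next above it, while CDKN2A, CDKN2B and MTAP are high in BT549 and MDA-MB-157 and near the floor in the other lines.

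Called genes were unevenly spread over the chromosomes, where 3.66% of all tested genes were higher and 3.15% lower. On chromosome 8, 69 of 547 tested genes were higher (12.6%) and 7 lower (1.28%), and on chromosome 13, 28 of 273 were higher (10.3%) and 3 lower (1.10%). Chromosomes 9 and 18 had 8.55% and 7.21% higher. On chromosome 17, 71 of 870 genes were lower (8.16%), and on chromosome 2, 75 of 964 (7.78%). The median difference was 0.40 on chromosome 8, 0.37 on 13, -0.23 on 17 and -0.24 on 2. With median scaling the higher shares fell to 6.76%, 4.76%, 3.62% and 3.37% on 8, 13, 9 and 18. The lower shares fell to 1.49% and 1.04% on 17 and 2. That setting called 239 higher and 151 lower of 14807 genes in all. The lower share on chromosome 2 was then close to that of all genes. In the authors' deposited table the lower shares were 3.22% and 2.18% on 17 and 2, and 214 of the 14807 genes were lower in all. Copy number was not measured here.

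Within chromosomes the called genes clustered on quantile-normalized arrays, and these regional counts were not repeated with median scaling. Of 111 tested genes that start between 20 and 40 Mb of chromosome 8, 27 were higher, and of 98 at 20 to 40 Mb of chromosome 9, 22 were higher. On chromosome 18, 12 of 56 genes at 40 to 60 Mb were higher and 0 of 61 in the first 20 Mb. On chromosome 2, 15 of 55 genes at 40 to 60 Mb were lower, and on chromosome 17 the first 20 Mb held 15 higher and 1 lower gene of 247 while 60 to 80 Mb held 0 higher and 20 lower of 161. In runs of 15 adjacent tested genes the highest counts were 9 higher at chr8:22114419-23020199, from HR to RHOBTB2, 9 higher at chr9:35829228-37785092, from TMEM8B to EXOSC3, and 8 higher at chr18:50266885-57036606, from MBD1 to WDR7. SMAD4, on chromosome 18, was higher by 1.02 ± 0.08 log2 (limma, largest adjusted p = 0.00061), and its call ended with median scaling. Lower genes reached 7 of 15 at chr2:73729873-74460881 and 6 of 15 at chr17:76000855-76585860. Of all 14449 such runs 0.741% held 5 or more higher genes and 0.471% held 5 or more lower ones, and overlapping runs share genes.

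**Figure D4:**
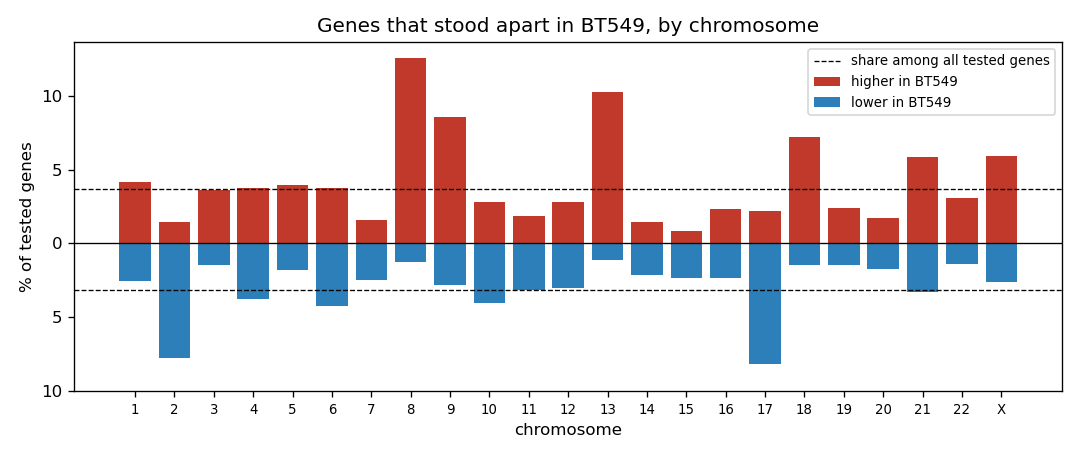
Percent of tested genes (y axis) on each chromosome (x axis) that were called higher (up) or lower (down) in BT549 at all 3 times, with dashed lines at the shares among all tested genes. Chromosome 8 reaches 12.6% higher and chromosome 17 reaches 8.16% lower.

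The change over time in BT549 was then set against the mean change of the other 3 lines from their own 0 h. At 24 h limma called 0 genes in either direction, with 601 at an unadjusted p under 0.05, and median scaling and the replicate block each called 1. At 72 h the change was larger in BT549 for 16 genes (0.108%) and smaller for 11 (0.0743%), with 1202 at an unadjusted p under 0.05. These counts rested on few arrays. Without BT549 0 h replicate 2 they were 2 and 1, and without BT549 72 h replicate 1 the larger changes numbered 43. With median scaling they were 1 and 7. With the replicate number within each line as a block they were 48 and 36.

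Genes that interferons induce led the larger changes. IFIT3, an antiviral RNA-binding protein, measured 6.92 and 5.84 before the drug in BT549, 6.98 and 6.45 at 24 h, then 9.35 and 8.83 at 72 h. Its change at 72 h was 2.71 log2 in BT549, -0.09 in HCC38, -0.40 in MDA-MB-157 and 0.91 in MDA-MB-231, a difference of 2.57 ± 0.37 (limma, adjusted p = 0.00376). IFI44L was at 6.25 and 4.59 at 0 h and 8.76 and 8.24 at 72 h, a difference in change of 3.42 ± 0.55 (limma, adjusted p = 0.00886). Without BT549 0 h replicate 2, the lower 0 h array for both, the adjusted p-values were 0.0724 and 0.129 and the differences 2.02 and 2.58. ISG15, IFIH1 and OAS3, an interferon-induced modifier and sensors of viral RNA, differed by 2.25, 2.21 and 2.16, and their calls ended in 15, 11 and 23 of 35 settings.

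All 39 tested interferon-stimulated genes had a larger change at 72 h in BT549 than the mean of the other lines, with a median of 1.43 log2, and 9 of them passed the test. The median over all genes was -0.0119. Without BT549 0 h replicate 2, 36 of 39 were above 0 and the list's median was 0.94, and with median scaling, 32 of 39 and 0.92, beside -0.51 for all genes. As levels over the 3 times, 0 of the 39 were called in either direction. At 0 h IFIT3 lay below every array of the other lines, and at 72 h it lay within their range. GAAANNGAAA was in 5 of 13 promoters (38.5%) of the larger-change genes that have an entry, in 0 of 8 of the smaller-change genes, in 19 of 30 (63.3%) of the interferon list and in 3.0% of all tested.

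IL4I1, a secreted amino acid oxidase, was at 4.88 and 5.0 at 0 h, 5.64 and 5.98 at 24 h and 6.99 and 7.39 at 72 h in BT549. It changed by at most 0.17 in size in each other line, a difference of 2.31 ± 0.28 (limma, adjusted p = 0.000921), and kept its call in all 35 settings. SOX11, a developmental transcription factor, did so as well in the other direction. It was at 8.20 and 8.09 at 0 h, 7.85 and 7.24 at 24 h and 6.36 and 5.41 at 72 h in BT549, while 0 of the 18 other arrays detected it. The difference in change was -2.30 ± 0.28 (limma, adjusted p = 0.000921), which is bounded by the floor in the other lines. SOX11, which passed the detection filter through BT549 alone, was still higher in BT549 than in each other line at 72 h. The smaller changes also included MEIOB, a meiotic recombination protein, ST6GALNAC3, a sialyltransferase, TMSB15A, a thymosin, RGCC and HPDL, at -1.87, -1.33, -1.45, -1.31 and -1.28.

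**Figure D5:**
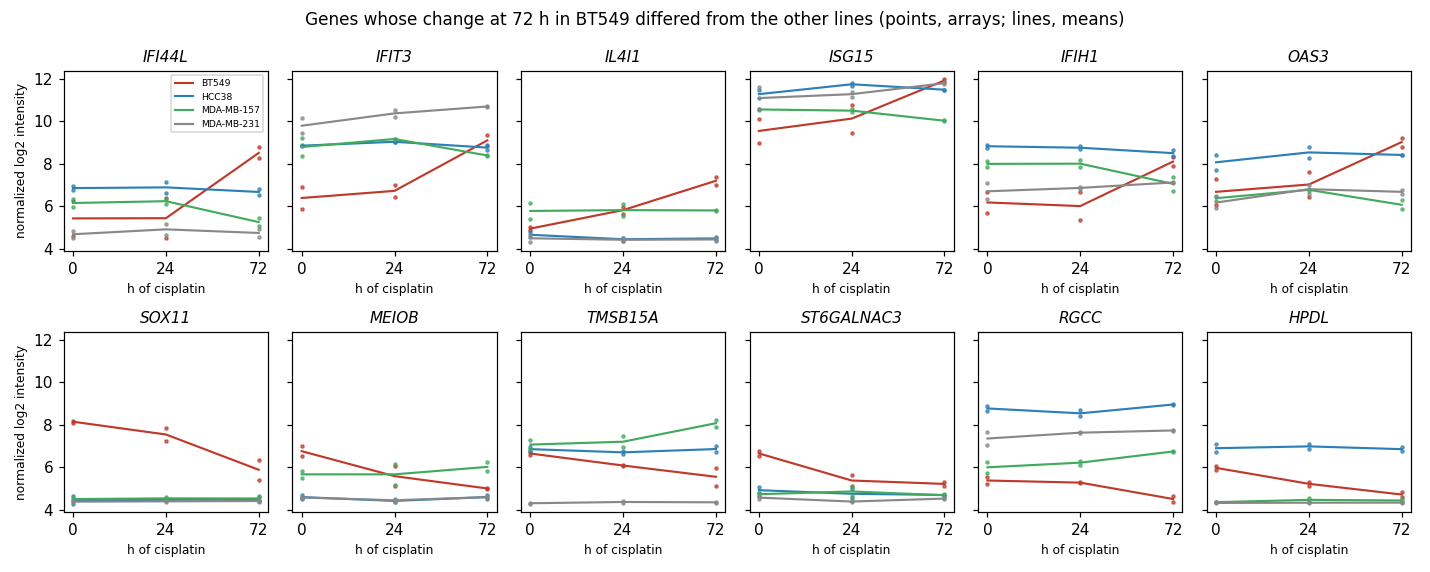
Normalized log2 intensity (y axis) against h of cisplatin (x axis) for the 6 genes with the largest and the 6 with the smallest change at 72 h in BT549 relative to the other lines, with points for arrays and lines for the means of each cell line. In BT549 IFIT3 goes from 6.92 and 5.84 to 9.35 and 8.83, and SOX11 from 8.20 and 8.09 to 6.36 and 5.41.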

How the data were processed

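RNA of 4 cell lines at 3 times was measured on 24 single-colour bead arrays, 12 on each of 2 slides, and each slide held 1 array of every group. Per the file headers, the deposited table holds an intensity for each probe before any normalization, and the software that made it is not given in the sources used here. A detection p-value stands beside each intensity, per the file headers. The log2 values in a second table deposited by the authors have no stated method. Its identifiers did not correspond to its values (33 of 47322 the same), so it was matched by value (47319 probes within 0.02) and used only as an alternative.

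Of 47322 probes 30112 had 1 gene symbol in the platform annotation, 8 several and 17202 none. 30073 of the probes matched the RefSeq table of GRCh38.p14 by gene identifier. Background was corrected with normexp in limma 3.58.1 (R 4.3.3), with negative controls inferred from the detection p-values and an offset of 16, and arrays were quantile normalized. Genes needed a detection p under 0.05 on 2 arrays and were represented by their brightest probe, which left 14807 of 20046 genes. A mean for each of the 12 groups was fitted by limma, with 12 residual and 6.87 prior degrees of freedom, and Benjamini-Hochberg adjustment ran over all tested genes per comparison. The fit was tested on simulated data.

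The 27 lists, the members and the named genes were chosen with earlier results of these data known. Named are the 4 markers, the 15 genes per direction with the widest least difference, up to 5 called members per list and direction, lineage and receptor genes, the neighbours of RB1, and the 6 genes per direction with the most different change at 72 h. Genes outside this rule (among them FBN1, MFAP2, HLA-C, B2M, TWIST1, PECAM1 and ITGAM) were chosen after their values were seen. Some planned genes are not reported here.

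Deviations of arrays with the same replicate number correlated at -0.105 to 0.501 over all groups. Within BT549 they correlated at 0.378 to 0.501, and within each other line the lowest of 3 pairs was -0.0492 to 0.0709. The labels do not say what the number marks, so the numbers pair the BT549 arrays on the data alone and do not pair arrays across lines. The slide was tested as a block. Within slides 541 of 542 higher and 467 of 467 lower genes kept the same sign in all 9 comparisons on both. These genes were called on the same arrays, so their agreement in sign was largely set by the calls and does not test the slide. 0 per-sample columns were left out. P-values measure the spread between 2 replicates per group.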

Additional observations from a re-analysis of the deposited data

Results flagged for a closer look

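For 12 genes the change at 72 h in BT549 differed from the mean change of the other lines by limma's test of that difference. The differences on the log2 scale were 3.42 for IFI44L, 2.57 for IFIT3, 2.31 for IL4I1, 2.25 for ISG15, 2.21 for IFIH1 and 2.16 for OAS3. They were -1.28 for HPDL, -1.31 for RGCC, -1.33 for ST6GALNAC3, -1.45 for TMSB15A, -1.87 for MEIOB and -2.30 for SOX11. IL4I1 and SOX11 kept their call in all 35 alternative settings, and the other 10 lost it in at least 1, among them the fit without BT549 0 h replicate 2.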

How the results depend on the processing

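Of 131 called values of named genes 71 kept their call in every one of up to 35 alternative settings. Median scaling moved the counts of higher and lower genes at all 3 times from 542 and 467 to 239 and 151, of which 229 and 151 were shared with the reported ones. It gave 1370 higher and 200 lower genes at 0 h, against 944 and 736 as reported. The counts were 381 higher and 255 lower at 24 h, and 306 higher and 293 lower at 72 h. There was 1 smaller change at 24 h, and 1 larger and 7 smaller at 72 h. The authors' deposited log2 table gave 214 lower genes at all times, 1617 higher at 0 h, 345 lower at 24 h, 393 lower at 72 h, and 10 larger and 21 smaller changes at 72 h. A minimum of 1 log2 gave 239 and 238. The replicate block, the replicate number within each line, gave 640 higher and 525 lower genes at all times (540 and 463 shared) and ended no call of a named gene. It gave 1 smaller change at 24 h and 48 larger and 36 smaller changes at 72 h. The cause of these shifts was not tested.

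Leaving out each array in turn gave 441 to 540 higher and 374 to 458 lower genes at all times. At 0 h the ranges were 652 to 964 and 480 to 754 (480 without BT549 0 h replicate 2), at 24 h 714 to 972 and 546 to 806, and at 72 h 757 to 960 and 593 to 800. The changes ranged from 0 to 1 in each direction at 24 h, and at 72 h from 2 to 43 larger and from 1 to 36 smaller (36 without MDA-MB-231 0 h replicate 1). FN1, uncalled at -0.03, ranged from -0.17 (without BT549 72 h replicate 2) to 0.10 and turned to 0.10 without BT549 72 h replicate 1, 0.0045 without MDA-MB-157 72 h replicate 2, 0.018 without MDA-MB-157 0 h replicate 2 and 0.11 within slide 2. The most fragile calls were PSMB8, lost in 26 settings, COL15A1, in 25, and the change of OAS3, in 23. With 2 arrays per group small differences may be missed, and probes near the floor limit folds to lower bounds.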
